A study of Mus musculus with 7 samples.

Results

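Sterol regulatory element-binding proteins (SREBPs) are the transcription factors that switch on cholesterol and fatty acid synthesis. Genes that encode them or handle them were examined in mouse fat cells: Srebf1, Srebf2, Scap, Insig1, Insig2, Mbtps1 and Mbtps2. Stard4, an SREBP target gene that encodes a carrier of cholesterol, was examined with them, which made 8 genes. They were taken by symbol, and 7 of the 8 entered the comparison, out of 18820 genes in all. The transcript cluster (the set of probes read as 1 unit) that lists Mbtps2 also lists a second gene, Yy2, and so names no single gene. Scap had 2 clusters and the brighter one stood for it. The members were not picked by a threshold on these values, but they were chosen with earlier results of these data known.

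The cells were 3T3-L1, an established clonal line of mouse fibroblast-like pre-adipocytes. They were measured on day 7 of differentiation, with 3 arrays from cells given an SCD inhibitor at 1 µM and 4 from cells given the same volume of DMSO. Stearoyl-CoA desaturase (SCD) makes monounsaturated fatty acids, and the inhibitor or DMSO was present throughout. Differentiation was induced alike in both groups, with human insulin, dexamethasone and isobutylmethylxanthine over 2 days, followed by human insulin alone. The sources used here describe the inhibitor as commercially available without naming it. A single clonal line limits what these cultures stand for. Whether the replicates were separate cultures is not stated, so the p-values rest on a spread between arrays that may be technical.

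SREBPs are made as inactive precursors in the membrane of the endoplasmic reticulum (ER), where they are bound to the escort protein SCAP. When sterols are plentiful, INSIG proteins hold SCAP in the ER. When sterols are scarce, SCAP carries SREBP to the Golgi in COPII vesicles, and the proteases encoded by Mbtps1 and Mbtps2 release the active factor. In general SREBP2, from Srebf2, drives cholesterol synthesis and uptake, and SREBP1, from Srebf1, drives fatty acid synthesis. Insig1 and Stard4 are themselves SREBP target genes. Arrays measure transcripts, so the cleavage of the SREBP proteins was not measured.

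The stretches before the starts of 3 genes are shown: Insig1, which rose, its relative Insig2, which did not pass the test, and Srebf2. They are from RefSeq, build GRCm38.p6, 5′ to 3′ on the gene's strand. Insig1 is chr5:28071162-28071411, plus strand, the 250 bases before the start. Insig2 is chr1:121332663-121332839, minus strand, the 177 bases of its outermost window that lie outside the annotated gene. Srebf2 is chr15:82147019-82147268, plus strand, the 250 bases before the start. The fourth stretch is 29 bases of the window of Hmgcs1, a cholesterol synthesis gene that rose, chr13:119690204-119690232, plus strand, with the sterol regulatory element letters TCACCCCAC. Capitals mark that element, its first 8 letters TCACCCCA, CCAAT (bound by NF-Y), CACGTG (an E-box) or GGGCGG (bound by Sp1), on either strand.
Insig1: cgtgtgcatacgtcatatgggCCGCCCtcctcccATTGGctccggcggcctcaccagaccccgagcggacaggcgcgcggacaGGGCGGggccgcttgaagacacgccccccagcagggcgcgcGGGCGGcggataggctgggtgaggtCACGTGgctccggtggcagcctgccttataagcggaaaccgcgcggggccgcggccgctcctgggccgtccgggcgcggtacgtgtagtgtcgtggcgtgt
Insig2: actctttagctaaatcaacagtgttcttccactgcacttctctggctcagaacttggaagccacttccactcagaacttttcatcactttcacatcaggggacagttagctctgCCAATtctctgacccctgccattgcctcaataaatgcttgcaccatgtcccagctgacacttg
Srebf2: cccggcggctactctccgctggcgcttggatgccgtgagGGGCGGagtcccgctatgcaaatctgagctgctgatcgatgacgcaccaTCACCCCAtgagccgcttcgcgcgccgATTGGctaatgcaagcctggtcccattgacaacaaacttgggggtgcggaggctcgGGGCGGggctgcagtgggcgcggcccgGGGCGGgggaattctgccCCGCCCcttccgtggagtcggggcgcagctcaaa
Hmgcs1: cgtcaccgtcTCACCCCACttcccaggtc

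RefSeq windows, each from 250 bases before to 50 after a start, were matched for 6 of the 7 genes and came to 11 windows. The letters TCACCCCAC, and TCACNCCAC, which includes them, were in 0 of the 11 windows, against 0.551% and 1.24% of all 32851 windows. The shorter TCACCCCA, chosen after the windows were seen and contained in TCACCCCAC, was in 1 of the 11, that of Srebf2, beginning 162 bases before the start, against 1.56% of all windows. CCAAT was in 5 of 11 (37.4% of all), CACGTG in 3 of 11 (7.15% of all) and GGGCGG in 9 of 11 (35.7% of all). The Insig1 window held CACGTG beginning 101 bases before the start, and the 3 Insig2 windows held none. The DR4 element of the receptor LXR was in none of them and in 0.0152% of all windows. The 2 Scap windows overlap, and the CACGTG in them is the same stretch of genome, so these counts are not of separate sites. In the lists described below, TCACNCCAC was in the windows of Hmgcs1, 1 of 14 cholesterol synthesis genes with a window, and in those of Sec24d, Stard3 and Mlxipl, of which Mlxipl fell and the other two did not pass. A letter match is not a measured site, and the absence of one says only that these letters are not in these windows.

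With the inhibitor, Stard4 and Insig1 rose and the other 5 measured genes did not pass the test. Stard4, a cytosolic carrier of cholesterol, was 1.64-fold higher, and Insig1, an anchor of SCAP in the ER, was 1.18-fold higher. The genes of the factors themselves had smaller differences, 0.15 for Srebf1 and 0.08 for Srebf2 on the log2 scale, neither past the threshold. Whether they changed less than Insig1 was not tested. Scap and Mbtps1, the escort and the first protease, differed by -0.03 and 0.08. In limma's fit over all genes, at an adjusted p of 0.05, 2 of the 7 genes were called, both higher, against 8.00% of all genes called in either direction, 3.62% called higher and 4.37% called lower. At an unadjusted p under 0.05 there were 5 of the 7, against 21.9% of all genes. The median difference was 0.081 among the 7 and -0.0037 among all genes.

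Levels are RMA expression values on the log2 scale, and differences are inhibitor minus DMSO. Stard4 read 8.70, 8.75 and 8.79 in the inhibitor arrays, against 7.96, 8.05, 8.01 and 8.11 in the DMSO arrays. The groups did not overlap, and the lowest inhibitor array lay 0.59 above the highest DMSO array. The means were 8.75 ± 0.047 (SD, n = 3) with the inhibitor and 8.03 ± 0.060 (SD, n = 4) in DMSO, a difference of 0.71 (SE 0.039, 95% interval 0.62 to 0.81, adjusted p = 1.63e-04 in limma). By size this increase ranked 44 among the 682 genes called higher. Its call held in all 17 other settings, with differences of 0.69 to 0.74.

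Insig1 read 11.70, 11.76 and 11.78 with the inhibitor, against 11.56, 11.44, 11.52 and 11.49 in DMSO. Every inhibitor array lay above every DMSO array, by 0.13 at the nearest. The means were 11.74 ± 0.043 (SD, n = 3) with the inhibitor and 11.50 ± 0.051 (SD, n = 4) in DMSO, a difference of 0.24 (SE 0.035, 95% interval 0.16 to 0.32, adjusted p = 0.00871 in limma). The increase ranked 503 of 682, so most genes called higher changed by more. The call held in 16 of the 17 other settings, with differences of 0.22 to 0.28 and an adjusted p of 0.0959 in the one that ended it.

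Insig2, the second anchor of SCAP and in liver not a target of SREBP, read 10.17, 10.25 and 10.28 with the inhibitor, against 10.49, 10.29, 10.30 and 10.38 in DMSO. All inhibitor arrays lay below all DMSO arrays, but by 0.0098 at the nearest, and the array DMSO 1 was the highest. The difference of -0.13 (SE 0.054, 95% interval -0.26 to -0.0016) did not pass (adjusted p = 0.223 in limma). Of all genes 17.3% were separated in this way, 8.30% upward and 9.02% downward, and among the 7 genes Stard4, Insig1 and Srebf1 were separated upward and Insig2 downward.

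The 2 INSIG genes were set against each other within each array. Insig1 minus Insig2 was 1.52, 1.51 and 1.50 in the inhibitor arrays, against 1.07, 1.15, 1.22 and 1.11 in the DMSO arrays. The groups did not overlap, and the mean of this log2 ratio was 0.37 higher in the inhibitor arrays, a difference that did not pass. The two-sided exact permutation test over arrays gave p = 0.0571, the smallest that 3 against 4 arrays allow, and 0.114 after adjustment over the 2 pairs of genes compared. For Srebf1 minus Srebf2 the shift was 0.073, with an exact permutation p = 0.114 (0.114 adjusted), and the groups overlapped.

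**Figure D1:**
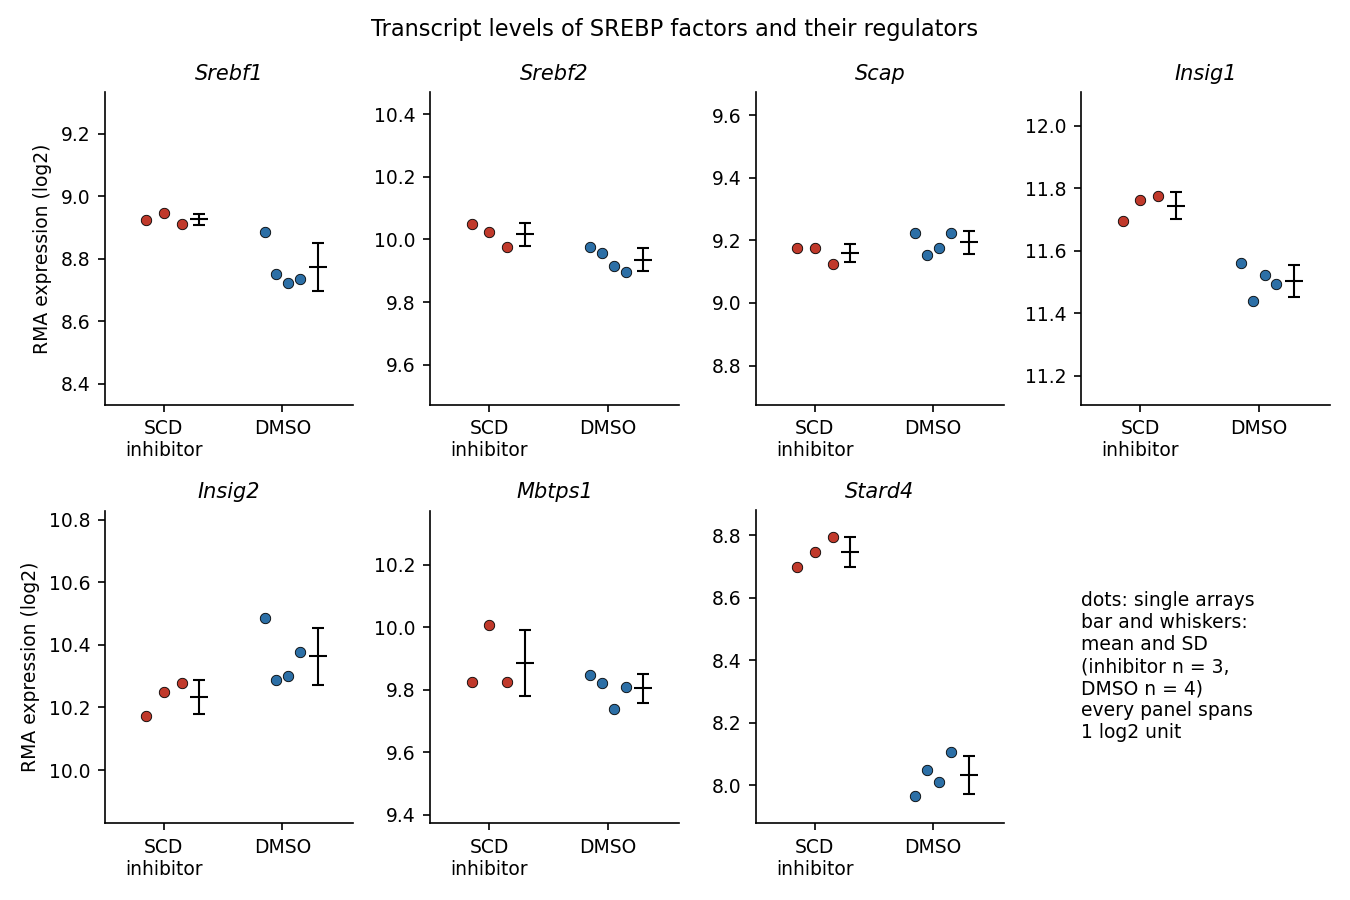
RMA expression (log2) of the 7 measured genes on each array, SCD inhibitor (3 arrays, red) left of DMSO (4 arrays, blue), with mean and SD; every panel spans the same log2 range. Stard4 and Insig1 stand clear of their DMSO arrays, Srebf1 stands above by a small gap with DMSO 1 close to the inhibitor arrays, and Scap and Mbtps1 overlap.

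Srebf1 read 8.92, 8.95 and 8.91 with the inhibitor, against 8.88, 8.75, 8.72 and 8.73 in DMSO. The inhibitor arrays lay close together and above all DMSO arrays, but DMSO 1 came within 0.025 of them. The difference of 0.15 (SE 0.042, 95% interval 0.053 to 0.25) did not pass with all arrays (adjusted p = 0.0850 in limma) and did without DMSO 1 (difference 0.19, adjusted p = 0.00494). Without any other single array it did not pass, with an adjusted p in limma between 0.176 and 0.225. It passed in 5 of the 17 other settings. The array gives 1 value for Srebf1, so its transcripts for SREBP1a and SREBP1c were not told apart.

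Srebf2 read 10.05, 10.02 and 9.98 with the inhibitor, against 9.98, 9.96, 9.91 and 9.89 in DMSO. The lowest inhibitor array and the highest DMSO array had the same value, so the groups touched. The difference of 0.08 (SE 0.029, 95% interval 0.012 to 0.15) did not pass (adjusted p = 0.165 in limma), nor in any of the 17 other settings.

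Scap read 9.18, 9.18 and 9.13 with the inhibitor, against 9.22, 9.15, 9.18 and 9.22 in DMSO, and the groups overlapped. Its difference was -0.03 (SE 0.026, 95% interval -0.098 to 0.028, adjusted p = 0.493 in limma). The second Scap cluster, near the low end of the scale at 4.09 with the inhibitor and 4.15 in DMSO, differed by -0.05 and did not pass either. Mbtps1, which encodes the site-1 protease, read 9.82, 10.01 and 9.82 with the inhibitor, against 9.85, 9.82, 9.74 and 9.81 in DMSO. SCD inhibitor 2 stood above the other 6 arrays, which lay together. The difference of 0.08 (SE 0.052, 95% interval -0.044 to 0.21, adjusted p = 0.430 in limma) was 0.020 without that array.

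**Figure D2:**
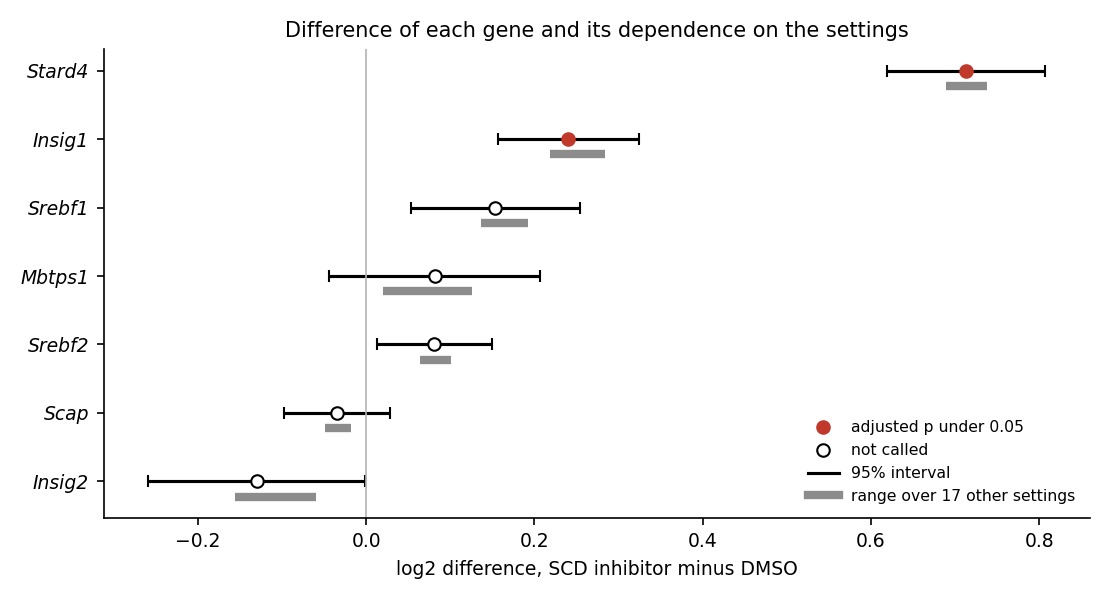
Log2 difference, SCD inhibitor minus DMSO, of the 7 measured genes with its 95% interval from limma (black whiskers), filled where the adjusted p is under 0.05, and the range of the difference over 17 other settings (grey bars). Stard4 (0.71) and Insig1 (0.24) are filled, and every grey bar stays on the side of zero of its own point.

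Around these genes, proteins that retain or ferry the SCAP-SREBP complex were examined as lists, which were chosen with earlier results of these data known. The largest decreases in them were in Paqr3 and Rnf145. Paqr3, a Golgi membrane protein known to tether SCAP and SREBP there, read 7.03, 7.09 and 7.13 with the inhibitor, against 8.16, 8.11, 8.04 and 8.22 in DMSO. The groups were far apart, and Paqr3 was 2.07-fold lower (difference -1.05, SE 0.047, adjusted p = 6.74e-05 in limma). Rnf145, an ER ubiquitin ligase known in mouse liver to modify SCAP, read 8.53, 8.71 and 8.68 with the inhibitor, against 9.59, 9.58, 9.50 and 9.51 in DMSO. It was 1.88-fold lower (difference -0.91, SE 0.050, adjusted p = 1.59e-04). Both calls held in all 17 other settings.

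Spring1, a Golgi protein needed for SREBP cleavage, read 7.98, 7.97 and 8.14 with the inhibitor, against 8.47, 8.34, 8.46 and 8.42 in DMSO. It fell by 0.39 (SE 0.051, adjusted p = 0.00609 in limma), a call that was lost without both arrays numbered 1 (difference -0.35, adjusted p = 0.0860). Golm1, another Golgi membrane protein, had a called increase of 0.22, yet limma's adjusted p lay between 0.0629 and 0.0930 without DMSO 1, 2, 3 or 4 or SCD inhibitor 2. Of the 5 Golgi genes listed, 2 fell, 1 rose and 2 did not pass (60% called, against 8.00% of all genes). Of 14 measured genes of sterol-regulated retention and degradation in the ER, Rnf145 was the 1 that fell, and 13 did not pass. The share called, 7.14%, was near the 8.00% of all genes. The median difference of these 14 was -0.061.

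COPII proteins form the vesicles that carry SCAP to the Golgi, and their genes mostly did not pass. Of 12 genes 1 fell (8.33%, against 8.00% of all genes called). That gene was Sec24a, a cargo-binding subunit of the coat, with a decrease of 0.22 whose adjusted p in limma was 0.0506, 0.0551 and 0.0716 without SCD inhibitor 1, 2 and 3. The list's median difference was -0.030. Of 13 nuclear partners and turnover factors 1 rose (7.69%, against 8.00% of all genes called). It was Nfya, a subunit of the NF-Y factor that works beside SREBP, with a difference of 0.16 and an adjusted p between 0.0517 and 0.0713 without DMSO 1, 2, 3 or 4 or SCD inhibitor 2 or 3. The median of these 13 was 0.0058.

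**Figure D3:**
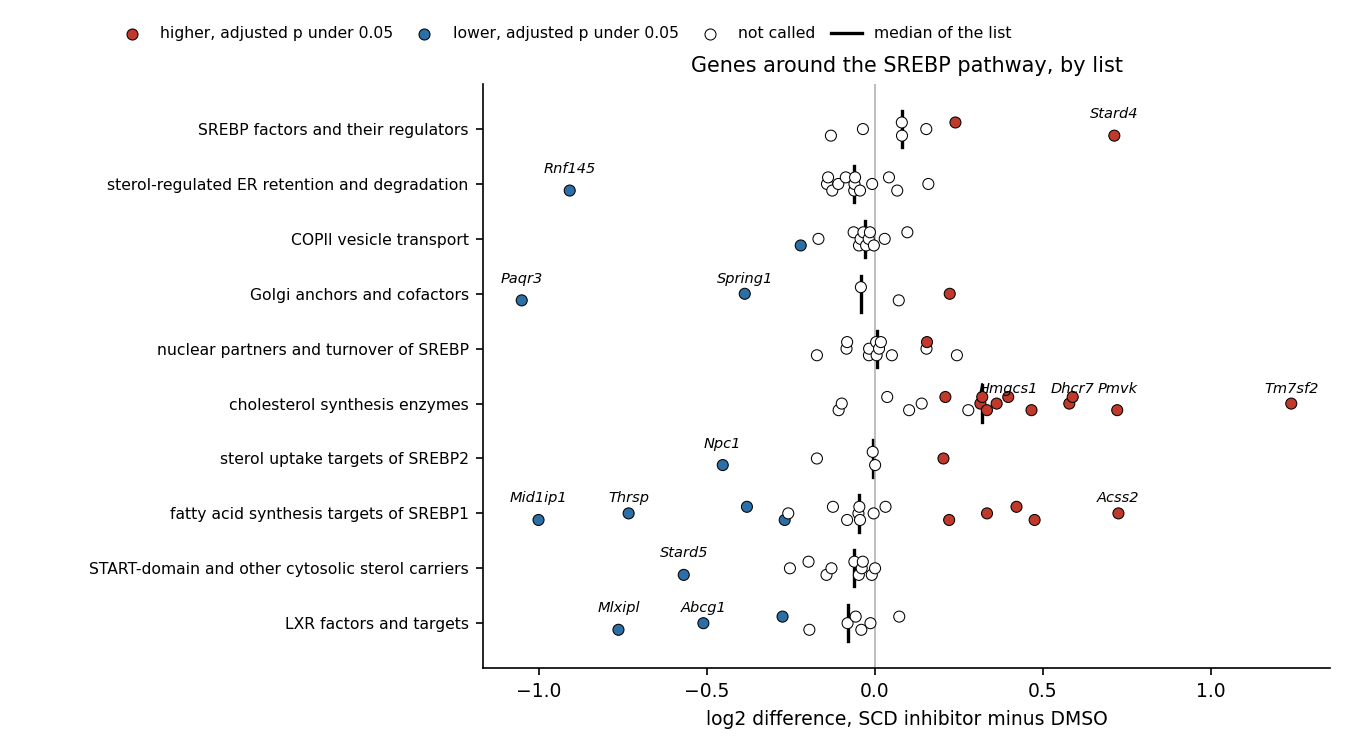
Log2 difference, SCD inhibitor minus DMSO, of every measured gene of the SREBP set and 9 surrounding lists, 1 dot per gene (red higher and blue lower at an adjusted p under 0.05, white not called), with the list median as a bar. Cholesterol synthesis enzymes lie mainly to the right (median 0.32), and the fatty acid synthesis targets spread to both sides, with Mid1ip1 leftmost and Acss2 (0.73) rightmost.

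Genes that SREBPs are known to drive gave the context for Stard4 and Insig1. Of 17 measured cholesterol synthesis enzymes 11 rose (64.7%, against 3.62% of all genes called higher) and 6 did not pass. Their median difference was 0.32. Among the 6 that did not pass, Sqle (-0.098) and Cyp51 (-0.11) differed downward and the rest upward. The largest increases were in Tm7sf2, a sterol reductase (1.24, SE 0.10), Pmvk, phosphomevalonate kinase (0.72, SE 0.047), and Dhcr7, which catalyses a last step to cholesterol (0.59, SE 0.053). The increase of Stard4 lay close to that of Pmvk, and that of Insig1 lay below the list's median. Hmgcs1, a synthase early in the pathway, rose by 0.40 (SE 0.065), with an adjusted p in limma of 0.0626 without SCD inhibitor 2 and 0.0637 without SCD inhibitor 3. The list's count of higher genes was 7 without SCD inhibitor 2 and 7 without SCD inhibitor 3.

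The 17 fatty acid synthesis targets did not move one way: 5 rose, 4 fell and 8 did not pass, with a median of -0.046. The share called was 52.9%, against 8.00% of all genes. Acss2, which makes acetyl-CoA from acetate, rose by 0.73 (SE 0.063). Mid1ip1, a partner of acetyl-CoA carboxylase, fell by 1.00 (SE 0.029), and Thrsp, its relative, fell by 0.73 (SE 0.045). Fasn, the fatty acid synthase, fell by 0.27 (SE 0.052), but its adjusted p in limma lay between 0.0541 and 0.0832 without DMSO 1, 2, 3 or 4 or SCD inhibitor 1. The desaturase genes Scd1 and Scd2 differed by 0.03 and -0.0031 and did not pass. Scd1 was near the top of the scale, at 13.08 with the inhibitor and 13.05 in DMSO. In SCD inhibitor 3 its value equalled the highest on the array, and whether its signal was saturated was not tested.

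Stard4 belongs to a family with a lipid-binding START domain. Among 11 other measured sterol carriers, from that family and beyond, 1 fell (9.09%, against 8.00% of all genes called) and 10 did not pass. It was Stard5, the close relative of Stard4, which read 8.31, 8.31 and 8.46 with the inhibitor, against 8.85, 8.91, 9.03 and 8.92 in DMSO. It was 1.48-fold lower (difference -0.57, SE 0.055, adjusted p = 0.00175 in limma), so the called differences of Stard4 and Stard5 had opposite signs; the difference between them was not tested. The list's median difference was -0.060.

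Of 7 genes listed as further SREBP2 targets, mostly of sterol uptake and transport, 5 were measured. Of these 1 fell and 1 rose (40% called, against 8.00% of all genes). One of the 5, Lpin1, a phosphatidate phosphatase, also stands in the list of nuclear partners. Npc1, which moves cholesterol out of lysosomes, read 9.09, 9.15 and 9.24 with the inhibitor, against 9.53, 9.66, 9.62 and 9.64 in DMSO, and fell by 0.45 (SE 0.046, adjusted p = 0.0022 in limma). Npc2, its soluble partner, rose by 0.20, with an adjusted p between 0.0630 and 0.128 without DMSO 1, 2 or 4 or SCD inhibitor 1, 2 or 3. The sterol-sensing receptor LXR acts on the other side of cholesterol balance and also induces Srebf1. Of 9 measured LXR factors and targets 3 fell: Mlxipl, which encodes the factor ChREBP (-0.76, SE 0.073), Abcg1, a cholesterol exporter (-0.51, SE 0.029), and Mylip, a ubiquitin ligase (-0.27, SE 0.038). The 3 that fell were 33.3% of this list, against 4.37% of all genes called lower. Nr1h3, which encodes LXRα, and Abca1, another exporter, differed by -0.01 and -0.06 and did not pass.

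**Figure D4:**
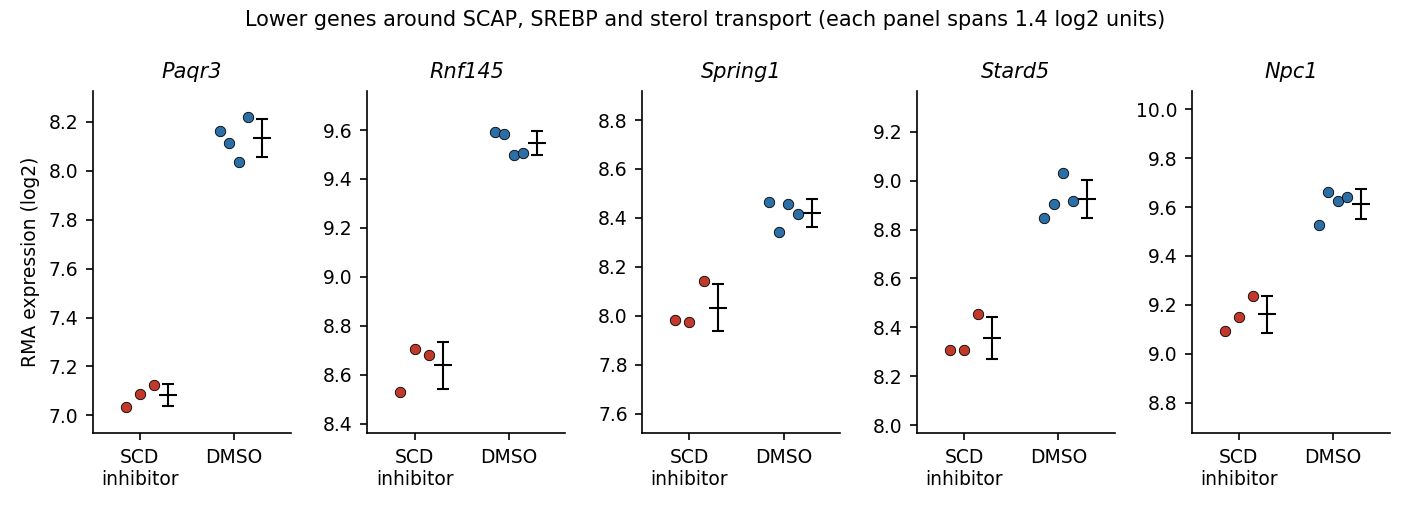
RMA expression (log2) of Paqr3, Rnf145, Spring1, Stard5 and Npc1 on each array, SCD inhibitor (3 arrays, red) left of DMSO (4 arrays, blue), with mean and SD. In all 5 panels the inhibitor arrays lie below all DMSO arrays, with the widest gap for Paqr3 (2.07-fold lower). These 5 were drawn from genes called lower, so their separation is no added result. Of all genes 9.02% were separated downward.

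The genes whose profile over the 7 arrays was most like that of a called gene were found by the root mean square distance between log2 values, each centred on the gene's DMSO mean. For Stard4 they were Vegfd (distance 0.047), Fut11 (0.052) and Zfp521 (0.054), with differences of 0.67, 0.68 and 0.70. The difference of Fut11 was 0.34 when all its clusters were averaged. For Insig1 they were Osbpl10 (0.024), Nolc1 (0.029) and Mfsd12 (0.030), with differences of 0.22, 0.23 and 0.25. Osbpl10 did not pass without DMSO 4 (adjusted p = 0.0547 in limma) or SCD inhibitor 2 (0.0722) or 3 (0.0723). Mfsd12 did not pass without DMSO 3 (0.0899), DMSO 4 (0.0877) or SCD inhibitor 1 (0.0549), 2 (0.105) or 3 (0.110). With 2 conditions this likeness mostly reflects a similar step between groups.

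The arrays carried the markers of fat cells in both groups. Of 11 adipocyte markers 10 did not pass and 1 fell (9.09%, against 8.00% of all genes called). The one that fell was Slc2a4, the insulin-responsive glucose transporter (difference -0.80, SE 0.070, adjusted p = 0.00112 in limma). Of the others, Lep, which encodes leptin, was near the low end of the scale, at 4.83 in both groups. Of 7 measured pre-adipocyte or fibroblast markers 5 rose (71.4%, against 3.62% of all genes called higher). The mean level of the 7 per array was 9.06 to 9.16 with the inhibitor and 8.65 to 8.77 in DMSO. Their part in the results was not tested. Markers of leukocytes, endothelium and skeletal muscle (15 measured) had group means of at most 6.19 with the inhibitor and 6.20 in DMSO. In these bulk samples, fewer cells of a type and less RNA per cell cannot be told apart. The 2 arrays numbered 1 had the lowest weights in limma's array weighting, 0.499 for SCD inhibitor 1 and 0.583 for DMSO 1.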

How the data were processed

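Expression was measured on 7 Affymetrix whole-transcript arrays. Per the submitters' processing notes the authors ran RMA, of unstated version. The deposited values lie between 2.23 and 13.2, which is a log2 scale. For annotation release, filters and genome build the sources used here give nothing.

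Of 28996 transcript clusters, 21218 had 1 gene symbol in the array annotation. The cluster with the highest mean stood for each of 18820 genes. All were fitted together with limma 3.58.1 in R 4.3.3 (lmFit, eBayes; 5 residual degrees of freedom), adjusted by Benjamini and Hochberg and called at 0.05, with no filter on dim genes. The fit was also run on simulated data, with 100 genes changed by 0.5 log2 units and 100 by 1. It recovered 83 and 100 of them, with 18 false calls among the other genes. Smaller changes were not simulated. The members and the 9 lists were chosen with earlier results of these data known. Named genes are the members, up to 3 called genes of each list with the largest change, some textbook sterol genes, and the 3 nearest profiles of each called member. The member pairs were compared by exact permutation. Tried as alternatives were a replicate block, other normalizations, filters, weights and each array left out. The number of arrays limits the precision.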

Additional observations from a re-analysis of the deposited data

Results flagged for a closer look

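In 2 of the 36 named genes, 1 of the 4 DMSO arrays stood far from the other 3 by Dixon's criterion, and chance alone flags about 1 in 20 groups. Abca1 read 10.54 in DMSO 2, against 10.42 to 10.44 in the other DMSO arrays. Zfp521 read 6.79 in DMSO 4, against 6.69 to 6.70 in the others.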

How the results depend on the processing

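For the 36 named genes, 552 of 612 values over 17 alternatives kept their direction and their side of the threshold, 52 lost a call, 5 gained one and 3 changed sign. The call of Stard4 held in all 17, with adjusted p at most 0.0105 in limma, and that of Insig1 in 16, ending with the replicate block (difference 0.24, adjusted p = 0.0959), which left 1 of the 7 genes called higher. The same block ended the call of Mylip (-0.27, adjusted p = 0.0530). Other calls that ended with it were those of Hmgcs1 (adjusted p = 0.0919 in limma), Sec24a (0.0854), Golm1 (0.119) and Nfya (0.122). So did those of Npc2 (0.169), Osbpl10 (0.117) and Mfsd12 (0.153). The 5 gained were all Srebf1: after a further quantile normalization (0.17), without the dimmest 50% of genes (0.15), with array weights (0.18), without both arrays numbered 1 (0.19) and over the single arrays left out (0.14 to 0.19, passing without DMSO 1). The sign changes were those of Nr1h3: 0.0026 with the arrays centred on their median, 0.0065 without both arrays numbered 1 and, without single arrays, -0.042 to 0.023. Cholesterol synthesis enzymes called higher numbered 7 with the replicate block and 7 to 12 without single arrays. Fatty acid synthesis targets called higher numbered 3 without both arrays numbered 1. The cause of these shifts was not tested. Over all genes, 1505 calls (682 higher, 823 lower) became 896 with the replicate block, 808 without both arrays numbered 1, 980 without DMSO 4, 949 without SCD inhibitor 3, and 2326 with centring (1296 higher, 1030 lower). Replicate numbers were not treated as pairs. Deviations from the group means correlated at 0.174, 0.138 and 0.0796 for numbers 1, 2 and 3. SCD inhibitor 1 and 3 correlated best with the DMSO array of their own number, and SCD inhibitor 2 with DMSO 4 (0.16).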
